A study of Mus musculus with 2 samples.

Results

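The miR-192, miR-194 and miR-215 family was examined in small RNA libraries of mouse liver after ethanol feeding. Its 7 mature microRNAs, mmu-miR-192-5p, mmu-miR-192-3p, mmu-miR-194-5p, mmu-miR-194-1-3p, mmu-miR-194-2-3p, mmu-miR-215-5p and mmu-miR-215-3p, were taken by exact name from the 1915 microRNA names of the deposited tables. All 7 are listed in experiment 2 and 6 of the 7 in experiment 1, where miR-194-1-3p is not among the 484 names. The mice were female wild-type C57BL/6 animals of 8 to 10 weeks, and every group first had 5 days of control Lieber-DeCarli liquid diet. The ethanol-fed mice then had this diet with 5% (v/v) ethanol for 10 days and a gavage of 6 g/kg ethanol on day 16, whereas the pair-fed mice had an isocaloric diet and a gavage of dextrin-maltose, and livers were taken 9 h later. Each of the 2 experiments holds 1 pair-fed and 1 ethanol-fed library, and how many animals stand behind a library is not given in the sources used here. There is therefore no replicate within an experiment, no p-value was computed, and a difference is between libraries rather than between conditions.

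MicroRNAs are cut from hairpins in longer transcripts, and 1 of the arms, the guide, is usually kept in an Argonaute protein while the other is lost. The guide finds messenger RNAs mainly through its seed, bases 2 to 8, so that microRNAs with the same seed share many targets. miR-192 and miR-194 are abundant in liver, gut and kidney epithelium, and the tumour suppressor p53 is known to raise the transcription of miR-192, miR-194 and miR-215.

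The 4 genes of the family lie in 2 pairs on the plus strand, each with a copy of the miR-194 gene upstream. The coordinates and sequences are those of RefSeq (GRCm38.p6), which held a sequence for all 7 members. On chromosome 19, Mir194-2 (chr19:6264643-6264728) precedes Mir192 (chr19:6264844-6264932) by 115 bases, and GENCODE vM21 places both between genes. On chromosome 1, Mir194-1 (chr1:185313319-185313385) precedes Mir215 (chr1:185313581-185313692) by 195 bases. Both of the latter lie antisense within an intron of Iars2, which encodes the mitochondrial isoleucyl-tRNA synthetase, and inside the noncoding gene 2010103J01Rik on their own strand, Mir194-1 in its intron and Mir215 over an exon.

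The mature sequences are shown because the identity of the members decides what their reads can tell apart, and capitals mark the seed.
miR-192-5p: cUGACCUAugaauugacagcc
miR-215-5p: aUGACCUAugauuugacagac
miR-194-5p: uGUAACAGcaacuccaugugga
miR-194-2-3p: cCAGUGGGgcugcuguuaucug
miR-194-1-3p: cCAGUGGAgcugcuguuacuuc
miR-192-3p: cUGCCAAUuccauaggucacag
miR-215-3p: uCUGUCAUucuguaggccaau

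miR-192-5p and miR-215-5p share the seed UGACCUA and 18 of 21 bases. With positions counted from the 5′ end of miR-192-5p, they differ by C1A, A12U and C20A. miR-194-5p has another seed, GUAACAG, and is identical from both gene copies, so its reads cannot be assigned to a copy. The opposite arms do tell the copies apart, because miR-194-2-3p and miR-194-1-3p differ at 4 of 22 positions, by G8A in the seed and by U19C, C20U and G22C, counted on miR-194-2-3p. Among the names with a RefSeq sequence, 421 of 484 in experiment 1 and 1623 of 1915 in experiment 2, no other microRNA above 0 in a library shared a seed with a member. The only seed-mates found were miR-6926-5p and miR-7055-5p, which have the seed of miR-194-2-3p and are listed at 0 in experiment 2.

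The hairpins show where the arms lie, with both mature arms in capitals.
Mir192: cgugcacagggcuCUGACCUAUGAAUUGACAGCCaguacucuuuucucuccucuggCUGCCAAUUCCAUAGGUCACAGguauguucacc
Mir194-2: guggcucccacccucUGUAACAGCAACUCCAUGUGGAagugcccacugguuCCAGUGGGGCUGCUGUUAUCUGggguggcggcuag
Mir215: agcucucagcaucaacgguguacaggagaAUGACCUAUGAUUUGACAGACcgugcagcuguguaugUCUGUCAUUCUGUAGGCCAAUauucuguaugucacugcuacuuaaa
Mir194-1: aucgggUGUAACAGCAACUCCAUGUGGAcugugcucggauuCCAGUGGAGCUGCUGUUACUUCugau

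The libraries of experiment 1 had 4170601 (pair-fed) and 4311802 (ethanol-fed) reads on microRNAs. Levels are given as RPM, the reads of a microRNA per 1000000 reads on all microRNAs. Experiment 2 lists only RPM, whose low values rise in steps of 0.0925 and 0.0924 RPM. Taken as 1 read, these steps give an estimate of 10812821 and 10820816 reads. No value above 0 is under 0.92 RPM, or 10 reads, in experiment 2, so that a microRNA listed at 0 there may have had up to 9 reads, whereas experiment 1 lists single reads. As the 2 tables were scaled separately, levels set across them are a description. In total liver RNA, fewer cells that express a microRNA and less of it per cell cannot be told apart.

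The family was dominated by miR-192-5p in all 4 libraries. In experiment 1 it reached 388161 RPM after pair-feeding and 373090 RPM after ethanol feeding, and in experiment 2 it reached 117318 and 109724 RPM, given here and below in the order pair-fed, ethanol-fed. It was thus the most abundant of all microRNAs in both libraries of experiment 1, with 38.82% (95% Wilson interval 38.77% to 38.86%) and 37.31% (37.26% to 37.35%) of the reads. In experiment 2 it ranked 3 in both libraries, with 11.73% (11.71% to 11.75%) and 10.97% (10.95% to 10.99%), behind miR-148a-3p and miR-122-5p.

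miR-194-5p, the guide encoded in both gene pairs, came second within the family. It was at 1149 and 1208 RPM in experiment 1 and at 23768 and 24988 RPM in experiment 2. Its rank among all microRNAs was 35 and 34 in the former experiment and 8 in both libraries of the latter. The levels of experiment 2 were 20.7-fold those of experiment 1 in both diets.

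miR-215-5p, which shares the seed of miR-192-5p, was a minor species. It was at 57.79 and 51.72 RPM in experiment 1, from 241 and 223 reads, and at 78.52 and 78.55 RPM in experiment 2. Of the members, it differed least between the experiments. The reads with the shared seed UGACCUA therefore came almost wholly from miR-192-5p, with 6717 and 7214 reads of miR-192-5p for each of miR-215-5p in experiment 1 and 1494 and 1397 in experiment 2. The sequences are near-identical and the rules by which reads were assigned are not given in the sources used here, so the level of miR-215-5p and these ratios are uncertain.

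The opposite arms were present at much lower levels. miR-194-2-3p was at 24.9 and 26.2 RPM in experiment 1 and at 116 and 134 RPM in experiment 2. miR-192-3p had 5 and 10 reads in experiment 1, or 1.20 and 2.32 RPM, and stood at 16.7 and 9.33 RPM in experiment 2. miR-215-3p had 3 and 2 reads in experiment 1 and is listed at 0 in experiment 2. miR-194-1-3p is listed at 0 in both libraries of experiment 2. Hence the arm that marks the chromosome 19 copy of miR-194 was found in all 4 libraries, at 126 and 145 times the lowest listed value of experiment 2, and the arm that marks the chromosome 1 copy was listed above 0 in none.

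Within each library of experiment 1 the order was miR-192-5p, miR-194-5p, miR-215-5p, miR-194-2-3p, miR-192-3p and miR-215-3p. In experiment 2, miR-194-2-3p lay above miR-215-5p in both libraries. The Wilson intervals of neighbours in the order did not overlap, except for miR-192-3p and miR-215-3p in both libraries of experiment 1. These intervals cover counting error only, since PCR copies were not told apart.

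**Figure D1:**
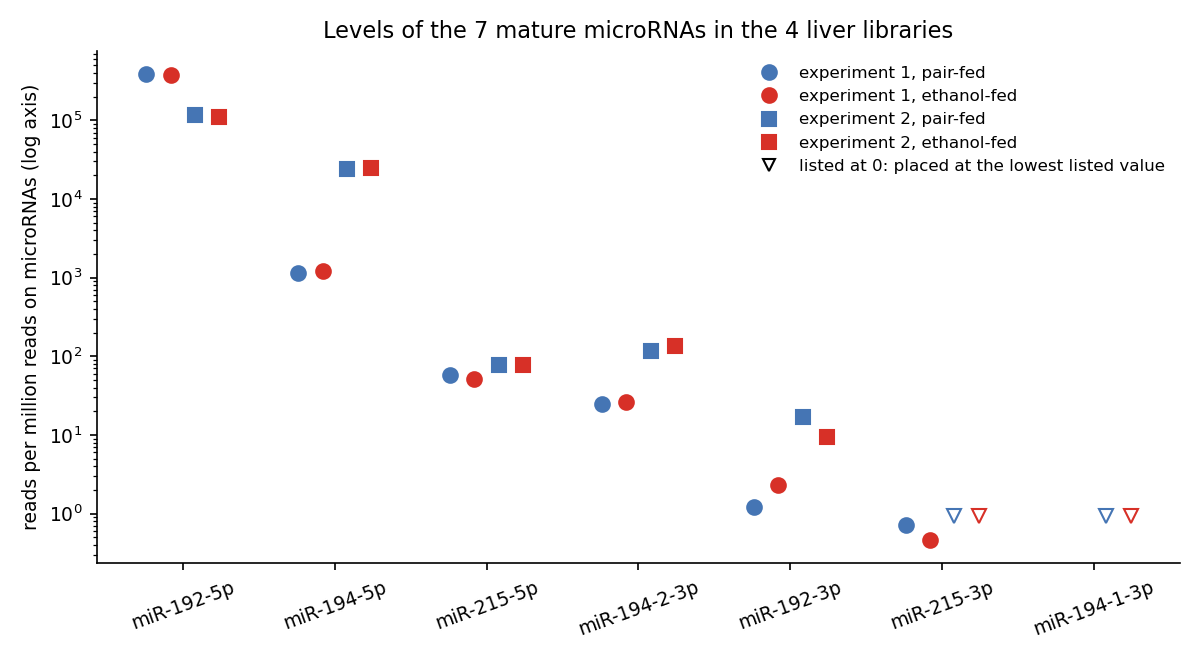
Level of each of the 7 members (x axis) in RPM (y axis, log scale), with circles for experiment 1, squares for experiment 2, blue for pair-fed and red for ethanol-fed libraries. Open triangles stand for values listed at 0 in experiment 2 and are placed at 0.92 RPM. The 2 diets of an experiment lie close together, apart from miR-215-3p and miR-192-3p. The latter is at 1.20 and 2.32 RPM in experiment 1 and at 16.7 and 9.33 RPM in experiment 2. Between the experiments, miR-194-5p goes from about 1149 to 1208 RPM in experiment 1 to 23768 to 24988 RPM in experiment 2.

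The comparison of ethanol-fed with pair-fed liver addressed whether feeding changes hepatic small RNAs. No member differed 2-fold in either experiment. A microRNA was compared when it had at least 10 reads in the 2 libraries of an experiment together, and it was called when its log2 ratio, with 1 read added per library, was at least 1 in either direction. Of the 7 members, 5 were compared in each experiment and 0 were called. Over all microRNAs compared, 25.5% of 302 in experiment 1 and 25.8% of 469 in experiment 2 were called. With a minimum of 100 reads, which 4 members passed in experiment 1 and 5 in experiment 2, these shares were 12.0% and 12.1%. In experiment 2 a microRNA listed at 0 in 1 library only is always called, because no value above 0 is under 10 reads. With such zeros set at the lowest listed value, the share of experiment 2 was 15.1%. A count of 0 among 5 members is too small to set them apart from any of these shares. The median absolute log2 ratio of the members was 0.072 in experiment 1 and 0.097 in experiment 2, against 0.52 and 0.41 over all microRNAs compared. These medians were not matched for level, and microRNAs with few reads vary more by counting alone. The 2 members that could not be compared were miR-215-3p, with too few reads, and miR-194-1-3p.

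miR-192-5p was slightly lower in the ethanol-fed library of each experiment. The fold was 0.961 (95% counting interval 0.959 to 0.963) in experiment 1 and 0.935 (0.933 to 0.938) in experiment 2. In experiment 1 this direction depended on the scaling, and the log2 ratio went from -0.057 to 0.016 with TMM factors, which are set to the bulk of the microRNAs. Of the microRNAs compared, 282 of 302 in experiment 1 and 402 of 469 in experiment 2 had a larger absolute log2 ratio. These counts were not matched for level. The spread between animals is not known, and the narrow intervals reflect only the number of reads.

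miR-194-5p was slightly higher in both ethanol-fed libraries, at 1.05-fold (1.01 to 1.09) in experiment 1 and 1.05-fold (1.05 to 1.06) in experiment 2. It stayed higher in every scaling tried, with log2 ratios from 0.037 to 0.15 in experiment 1 and from 0.060 to 0.072 in experiment 2. miR-194-2-3p, its opposite arm, had a fold of 1.05 (0.798 to 1.39) in experiment 1 and 1.15 (1.07 to 1.24) in experiment 2. For miR-215-5p the folds were 0.895 (0.743 to 1.08) and 1.00 (0.909 to 1.10), so both intervals include 1.

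miR-192-3p was the member with the widest differences, and they ran in opposite directions. Its 5 and 10 reads in experiment 1 give a log2 ratio of 0.83 and a fold of 1.94 with an interval from 0.603 to 7.21, which includes 1. The log2 ratio depends on the reads added per library, and was 0.94 with 0.1 reads and 0.37 with 10. In experiment 2, about 181 and 101 reads give a log2 ratio of -0.84 and a fold of 0.558 (0.433 to 0.715). A larger absolute log2 ratio was found for 96 and 143 of the microRNAs compared in the respective experiments, and the difference between the experiments was not tested.

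Summed over the family, the level went from 389394 to 374378 RPM in experiment 1 and from 141298 to 134934 RPM in experiment 2, or 0.961-fold (0.959 to 0.963) and 0.955-fold (0.953 to 0.957). The direction of the sum in experiment 1 also turned with TMM factors, to a log2 ratio of 0.016. Without miR-192-5p, the family was at 1234 and 1289 RPM in experiment 1 and at 23980 and 25209 RPM in experiment 2, 1.04-fold (1.01 to 1.09) and 1.05-fold (1.05 to 1.06).

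**Figure D2:**
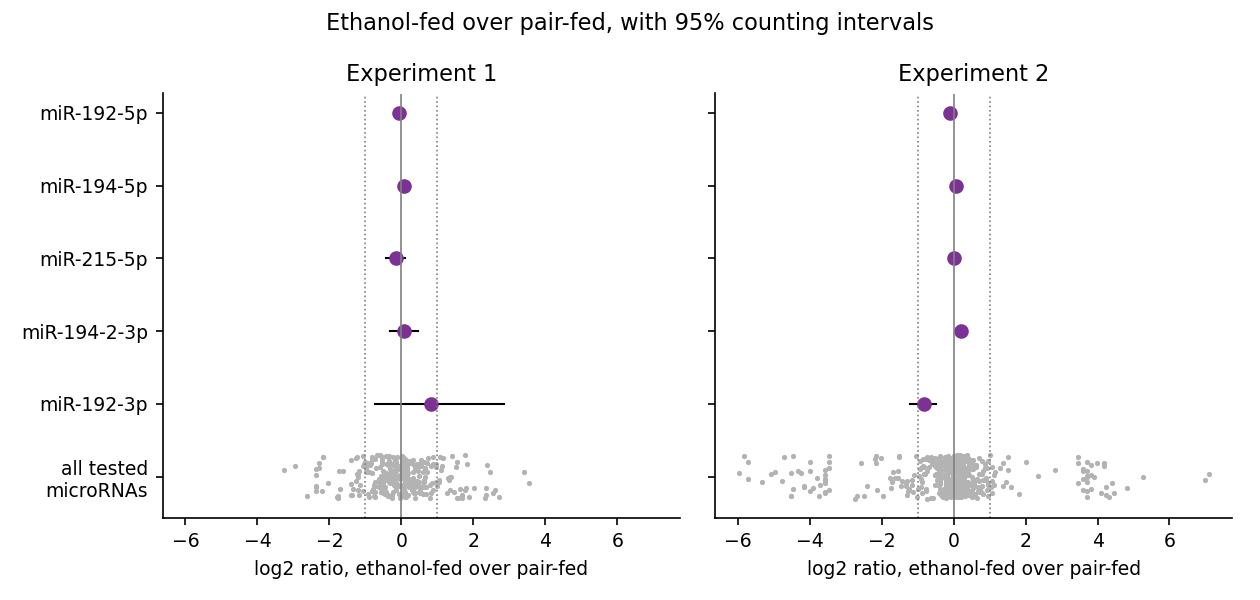
Log2 ratio of the ethanol-fed to the pair-fed library (x axis) for the 5 members compared in experiment 1 (left) and experiment 2 (right), with 95% counting intervals as lines and all microRNAs compared, members included, as grey points spread vertically at random. Dotted lines mark a 2-fold difference. The members lie near 0, except miR-192-3p at 0.83 and -0.84.

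Ratios between members within a library do not depend on scaling. With ethanol, the reads of miR-192-5p per read of miR-194-5p went from 338 to 309 in experiment 1 and from 4.94 to 4.39 in experiment 2. The ratio was 0.914 (95% counting interval 0.879 to 0.951) and 0.890 (0.884 to 0.895) times that of the pair-fed library, so it was lower with ethanol in each experiment. Among 24 pairs of neighbouring microRNA genes on the same strand, at most 10000 bases apart and with at least 100 reads per experiment, the median change of the ratio was 1.24-fold in experiment 1 and 1.11-fold in experiment 2, and 18 and 11 pairs changed more than miR-192-5p and miR-194-5p did.

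The same ratio differed far more between the experiments than between the diets. The 338 reads of miR-192-5p per read of miR-194-5p in the pair-fed library of experiment 1 were 68.4-fold the 4.94 of experiment 2, and in the ethanol-fed libraries the difference was 70.3-fold. Against miR-215-5p, the reads of miR-194-5p stood at 19.9 and 23.4 in experiment 1 and at 303 and 318 in experiment 2. The 5p to 3p ratio of miR-194, taken over miR-194-2-3p, was 46.1 in both libraries of experiment 1 and 205 and 187 in experiment 2. These proportions were therefore closer within an experiment than across the experiments.

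**Figure D3:**
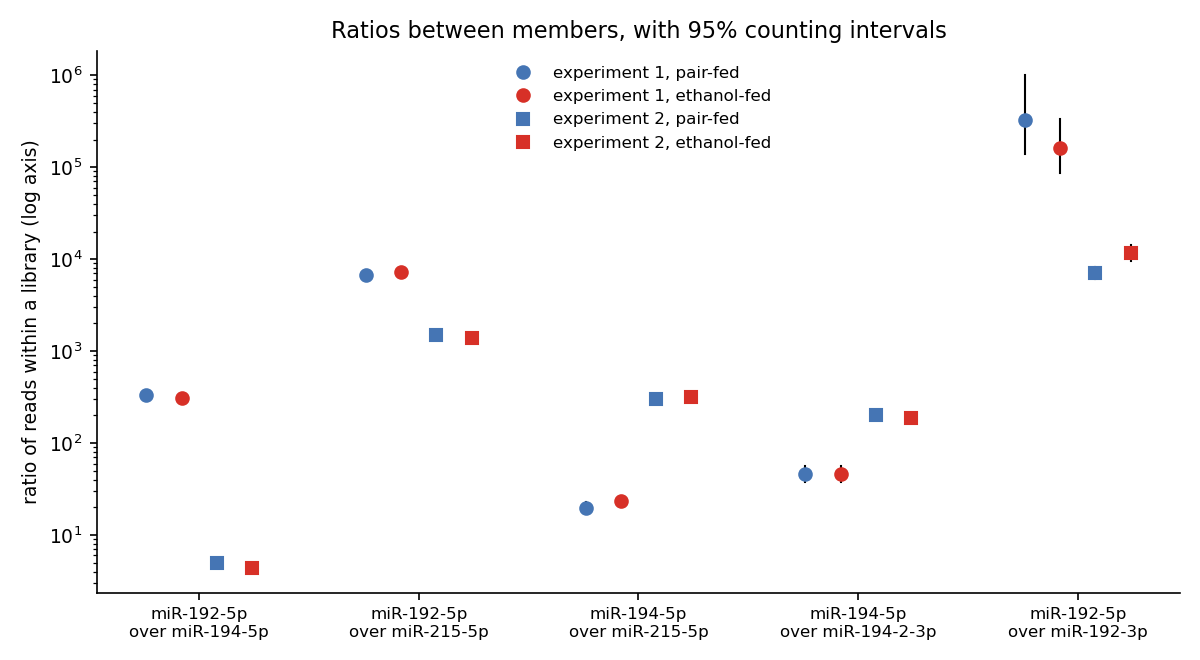
Ratio of reads between members of the family within a library (y axis, log scale) for 5 ratios (x axis), with symbols as in the plot of levels and 95% counting intervals as lines. The ratio of miR-192-5p to miR-194-5p is 338 and 309 in experiment 1 and 4.94 and 4.39 in experiment 2.

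Of the arms of its hairpin, miR-192 kept 1 almost exclusively. There were 323773 (138740 to 997153) and 160869 (87474 to 335466) reads of miR-192-5p per read of miR-192-3p in experiment 1, and 7008 (6059 to 8153) and 11756 (9675 to 14433) in experiment 2. Among the hairpins with both arms above 0 in a library, 96 to 121 of them, the median ratio of the major to the minor arm was 10.1 to 21.5. The miR-192 hairpin ranked 1 in the pair-fed library of experiment 1 and 2 in the other libraries, behind miR-143 in the ethanol-fed library of experiment 1 and behind miR-101a (pair-fed) and let-7g (ethanol-fed) in experiment 2. These ranks hold only among the hairpins counted, since those with an arm listed at 0 were left out. In the pair-fed library of experiment 2 this left out let-7g, whose 5p arm was at 32887 RPM. For miR-215, the 5p to 3p ratio was 80.3 (27.2 to 392) and 112 (30.5 to 926) in experiment 1.

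Across the experiments, miR-192-5p and miR-194-5p differed in opposite ways. In the pair-fed libraries, miR-192-5p was 3.31-fold higher in experiment 1, miR-194-5p 20.7-fold higher in experiment 2, and miR-192-3p, miR-194-2-3p and miR-215-5p were 14.0-fold, 4.66-fold and 1.36-fold higher in experiment 2. A total of 277 microRNAs were above 0 in both libraries and had at least 10 reads in each experiment. Their median log2 ratio of experiment 1 over experiment 2 was -1.22, and 37 of them lay above miR-192-5p and 36 below miR-194-5p. This median depends on that choice, as the lowest level listed differs between the experiments. In the ethanol-fed libraries, miR-192-5p was 3.40-fold higher in experiment 1, and miR-194-5p, miR-194-2-3p, miR-192-3p and miR-215-5p were 20.7-fold, 5.10-fold, 4.02-fold and 1.52-fold higher in experiment 2. The fold of miR-192-3p thus differed between the diets, from 5 and 10 reads in experiment 1. Whether the libraries of the 2 experiments were prepared alike is not given in the sources used here, and the part of the preparation in these differences was not tested.

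**Figure D4:**
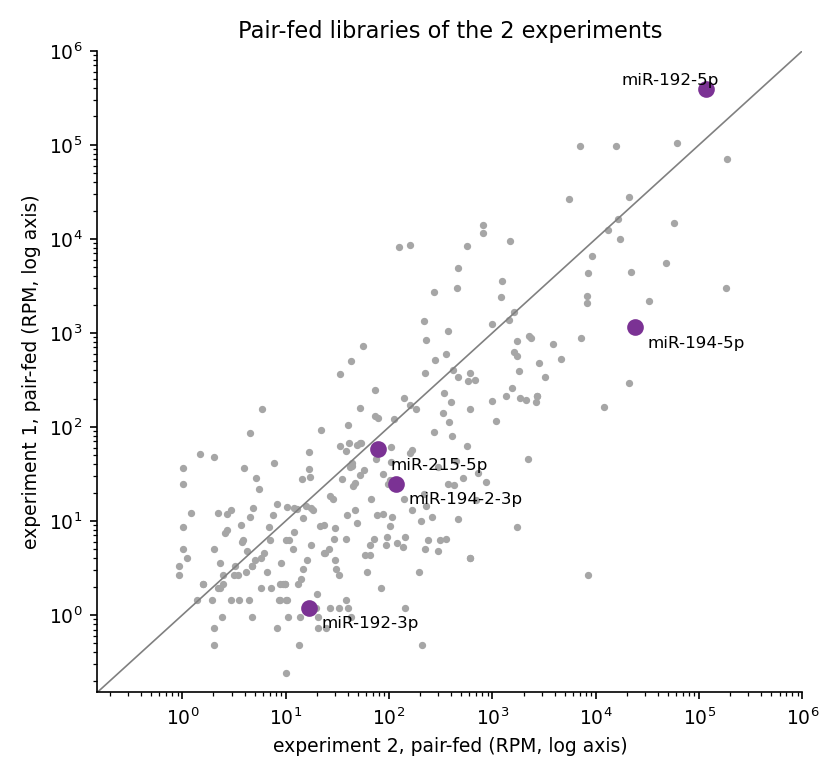
Level of 277 microRNAs in the pair-fed library of experiment 2 (x axis, RPM, log scale) and of experiment 1 (y axis, RPM, log scale), with 5 members in purple and a line of equal levels. miR-192-5p lies above the line and miR-194-5p below it, at 23768 RPM in experiment 2 and 1149 RPM in experiment 1.

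Other neighbouring genes also changed their ratio between the experiments. Over the same 24 pairs, the median change was 3.06-fold in the pair-fed and 2.43-fold in the ethanol-fed libraries. The change of miR-192-5p against miR-194-5p was exceeded by 1 pair, miR-145a-5p and miR-143-3p, in the pair-fed libraries and by 0 pairs in the ethanol-fed libraries. miR-194-5p may come from both loci, so this pair is not a pure readout of the chromosome 19 genes. Other pairs among the 24 share this limit, such as those with let-7f-5p, let-7c-5p, miR-24-3p and miR-29b-3p. Each of these microRNAs, like miR-194-5p, enters more than 1 pair, so the pairs are not independent.

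**Figure D5:**
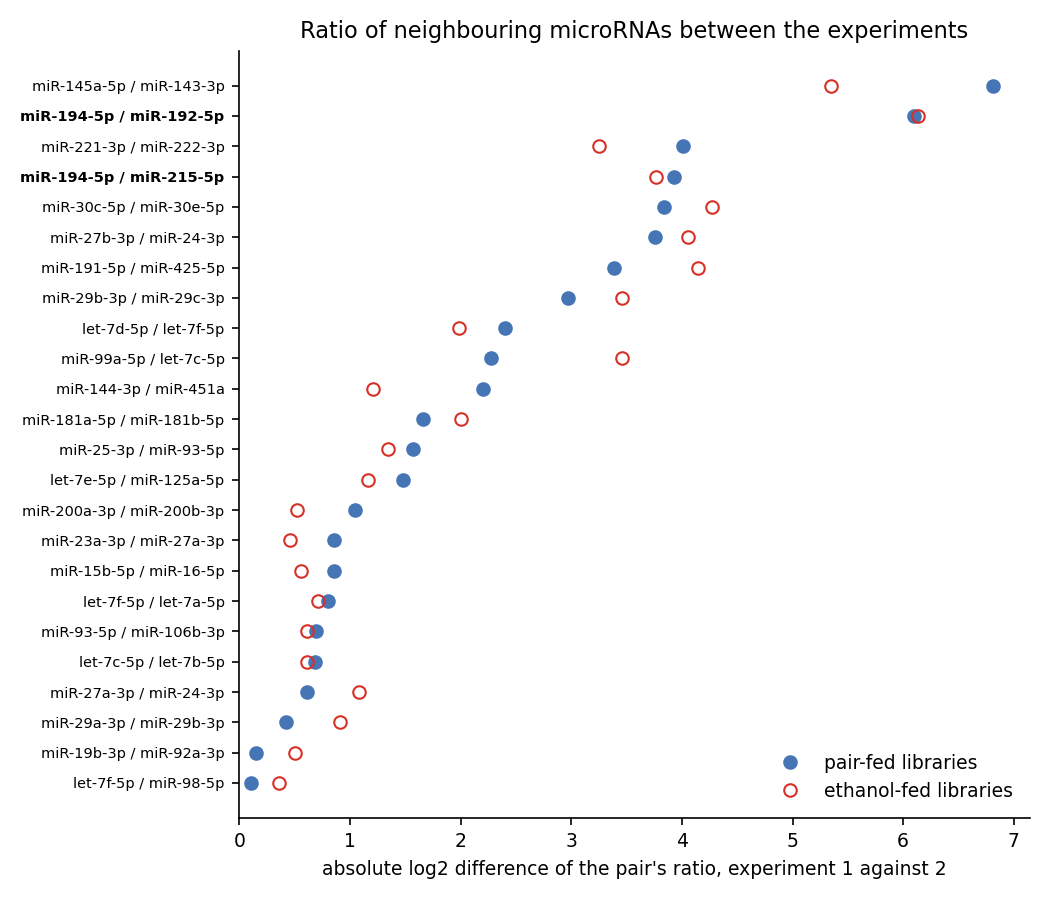
Absolute log2 difference between experiment 1 and experiment 2 (x axis) of the ratio of 2 neighbouring microRNAs (y axis, 24 pairs), in pair-fed (filled) and ethanol-fed libraries (open), with the pairs of the family in bold. The ratio of miR-194-5p with miR-192-5p differs 68.4-fold and 70.3-fold, and that of miR-194-5p with miR-215-5p 15.2-fold and 13.6-fold.

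The microRNAs whose levels over the 4 libraries were most like those of miR-192-5p were miR-126a-5p, let-7e-5p and miR-181b-5p. Their root mean square differences from it in centred log2(RPM + 1) were 0.200, 0.269 and 0.286, among 111 microRNAs with a mean of at least 100 RPM. Nearest to miR-194-5p were miR-139-5p (0.187), miR-24-3p (0.202) and miR-199a-5p (0.223). miR-194-5p ranked only 89 in likeness to miR-192-5p, with a difference of 3.06. As the experiments differ much more than the diets, this likeness describes mainly the difference between the experiments.

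The label of liver was compared with hepatocyte microRNAs. miR-122-5p, the most characteristic of them, was at 182938 and 156660 RPM in experiment 2, but at 2971 and 2210 RPM in experiment 1. The summed hepatocyte list held both arms of miR-122, miR-802 and miR-148a. It was 36.9% and 34.5% of the reads in experiment 2 and 7.39% and 7.98% in experiment 1. Most of the latter was miR-148a-3p, at 70319 and 76712 RPM. In either experiment 0 of the 6 members were called, beside 25.5% of all microRNAs in experiment 1 and 25.8% in experiment 2. The miR-200 list of epithelial cells, like the family, is expressed in gut and ducts. It was at 61.4 and 61.9 RPM in experiment 1 and at 519 and 887 RPM in experiment 2. All 5 members were higher with ethanol in experiment 2 and 0 were called, beside the same 25.8%. Counts of 0 among 5 or 6 members are too small to set these lists apart from those shares. The median log2 ratio of the miR-200 list was 0.0043 and 0.81, against -0.013 and 0.0026 over all microRNAs compared.

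The lists of blood and connective tissue cells were compared between the libraries in the same way. The red cell list was higher in the ethanol-fed library of experiment 1, in 4 of 4 members and from 11559 to 33915 RPM. Of these members 3 were called, where 25.5% of all microRNAs were. The sum there was almost wholly miR-486a-5p (11512 to 33721 RPM). In the ethanol-fed library of experiment 2 the list was lower in 4 of 4 members, from 1826 to 1152 RPM. There 0 were called, where 25.8% of all microRNAs were. The median log2 ratio of this list was 1.68 and -0.68. The white cell list was lower with ethanol in all 4 members compared of 5 in experiment 1 and in 5 of 5 in experiment 2. Its sum went from 404 to 336 RPM and from 886 to 473 RPM, with medians of -0.57 and -0.87. In both experiments 0 were called, beside the same 25.5% and 25.8%. For the mesenchyme list, the median was 0.62 in experiment 1, with 2 of 5 members called higher beside the same 25.5%. Of these 2, miR-214-3p was at only 0.719 and 4.64 RPM. In experiment 2 the median was -0.0018, with 0 of 5 called beside the same 25.8%. The part of these cells in the levels of miR-192-5p, miR-194-5p and the other members was not tested.

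The other microRNAs linked to p53, the miR-34 family, were far below miR-192-5p and miR-194-5p. In experiment 1, 2 of 5 were compared and 0 called, beside 25.5% of all microRNAs. In experiment 2, 3 were compared, of which 1 was called higher and 1 lower, beside the 25.8% of all microRNAs called there. miR-34a-5p, a direct target of p53, was at 5.76 and 4.41 RPM in experiment 1 and went from 119 to 44.4 RPM in experiment 2, a log2 ratio of -1.42. miR-34b-5p, at 0.92 and 2.13 RPM, was the one called higher. Its pair-fed value is the lowest listed value of experiment 2, or 10 reads, so this call rests on few reads.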

How the data were processed

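Small RNAs of liver were gel-purified, amplified by RT-PCR and sequenced on an Illumina HiSeq, although the deposited protocol names a TruSeq RNA kit. For experiment 1 the authors deposited counts of reads per mature microRNA, without normalization. For experiment 2 they deposited RPM, which sum to 999899 and 999896, and also their own log2 fold changes and p-values, which were not used. The aligner and the microRNA annotation are not given in the sources used here, and the submitters' processing notes name mm8, while coordinates here are GRCm38. Ethanol feeding lasted 10 days by the protocol and 16 by the design text. Columns were assigned to the diets by their names.

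Reads of experiment 2 were estimated from the steps (96.1% of the values above 0 were whole reads within 0.0051 RPM). Log2 ratios, Wilson intervals and exact conditional intervals of count ratios were computed with Python 3.11.15, numpy 2.4.6, pandas 2.3.3 and scipy 1.17.1, ratios of ratios had normal intervals on the log scale, and TMM factors came from edgeR 4.0.16. Ratios and intervals were tested on simulated data. Members were named by a fixed list, the other microRNAs by likeness, shared seed or marker list. Members, lists and comparisons were chosen with earlier results of these data known, and the neighbouring pairs after values had been seen. Alternatives were other scalings, pseudocounts of 0.1 and 10 reads, no minimum or 100 reads, and zeros of experiment 2 at the lowest listed value.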

Additional observations from a re-analysis of the deposited data

Results flagged for a closer look

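Among the members compared in both experiments, 2 had log2 ratios of opposite sign, and the difference between the experiments was not tested. miR-192-3p was at 0.826 in experiment 1, from 5 and 10 reads, and at -0.836 in experiment 2. miR-215-5p was at -0.16 in experiment 1 and at 0.00063 in experiment 2, with counting intervals that include 0 in both and a sign in experiment 2 that changed with other scalings.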

How the results depend on the processing

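No member reached a 2-fold difference under any of the alternatives, which were varied singly and not combined. miR-192-3p in experiment 1, with 5 and 10 reads, came close, at a log2 ratio of 0.938 with 0.1 reads added per library. For this member the result thus depends on the reads added. The log2 ratio of the summed family was -0.057 in experiment 1, and became -0.023 with median-of-ratios size factors, 0.016 with TMM factors, -0.092 with the members left out of the total and -0.0087 with unscaled reads. In experiment 2 it was -0.066, and became -0.079 with median-of-ratios size factors and -0.077 with the members left out of the total. The sign in experiment 1 thus depends on the scaling, and the cause was not tested. Of 79 values of single members under the alternatives, 70 stayed within their counting interval and 4 changed sign, 1 of miR-192-5p in experiment 1 and 3 of miR-215-5p in experiment 2. Another minimum, or another value for zeros, cannot alter the ratio of a member above 0 in both libraries. Such values stayed by construction, so the 70 overstate the stability. The 9 values that moved all came from other scalings. The share of all microRNAs called went from 25.5% to 13.2% with a pseudocount of 10 reads and to 12.0% with a minimum of 100 reads in experiment 1, and from 25.8% to 12.1% with that minimum and to 15.1% with zeros at the lowest listed value in experiment 2. With no minimum it was 41.5% in experiment 1. No paired analysis was possible because each experiment is a single pair of libraries, and the 2 pairs were not tested together since their tables were scaled separately. With 1 library per diet, none could be left out. miR-215-3p could be compared only with no minimum, at -0.463 in experiment 1. Depth limits miR-192-3p and miR-215-3p in experiment 1 and whatever had under 10 reads in experiment 2.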
